A study of Mus musculus with 4 samples.

Results

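Interferon-stimulated Cxcl10 high monocytes were described in immune cells of MC38 tumours, grown under the skin from a mouse colorectal line, profiled by single-cell RNA sequencing. The members were 3769 of 39906 cells (9.44%), and they were chosen by their UMI counts (unique molecular identifiers, 1 per captured RNA molecule). A member held at least 5 UMIs of Lyz2 and 3 of Ly6c2, the genes of lysozyme and of the monocyte surface protein Ly6C, with at least 5 UMIs of Cxcl10 and 2 of Rsad2. Macrophages, T cells and dendritic cells were kept out by limits on the 3 complement C1q genes (under 10 UMIs per 10,000), on Cd3d, Cd3e and Cd3g together (at most 1 UMI), on Cd209a (at most 1) and on Siglech (at most 1). The study compared wild-type (WT) mice with Trim25 conditional knockout (cKO) mice, 8 weeks old when tumour cells were injected. CD45-positive cells were sorted and made into 2 libraries for each genotype. Values of the 4 libraries are given in the order WT-1, WT-2 and then cKO-1, cKO-2. The series title places the Trim25 loss in T cells. The sources used here give neither the promoter that drives the Cre nor the exons removed nor the number of animals per library, so each p-value reflects the spread among these libraries alone, which may be technical. The labels name colon and a colorectal tumour line as the tissue and cell type, while the cells described here carried the haematopoietic and monocyte genes given below.

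Ly6C-positive monocytes leave the blood, enter inflamed tissue and tumours, and can become macrophages or dendritic cells there. Type I and type II interferons bind receptors that act through JAK kinases and STAT transcription factors, which bind elements in promoters, among them interferon-stimulated response elements, and switch on a large set of antiviral genes. Cxcl10 encodes a chemokine that draws CXCR3-bearing T and NK cells, and Rsad2 encodes viperin, an antiviral enzyme. Ifit1 encodes a protein that binds foreign RNA, Ifi205 belongs to the interferon-induced Ifi200 family, and Slfn4 is a schlafen gene of myeloid cells.

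The promoters of the label's 5 markers (Cxcl10, Rsad2, Ifit1, Ifi205 and Slfn4) are where such elements can be looked for, and 4 of them held a match. The letters GAAA, any 2 bases and GAAA again, the core of an interferon-stimulated response element, were searched on both strands in the 250 bases before each gene's start in RefSeq (GRCm38.p6, the build also called mm10). They were found in the 4 windows below, where the match is in capitals and the rest in lower case, 5′ to 3′ on the gene's strand. Bases that lie inside the gene in GENCODE vM21 were left out. A match describes the letters and says nothing of binding.
Cxcl10 (chr5:92348890-92349139, minus strand): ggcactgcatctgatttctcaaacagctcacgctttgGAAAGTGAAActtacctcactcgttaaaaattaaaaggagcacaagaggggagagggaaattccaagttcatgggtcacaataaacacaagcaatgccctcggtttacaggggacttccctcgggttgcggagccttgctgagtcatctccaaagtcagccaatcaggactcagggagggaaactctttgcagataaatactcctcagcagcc
Rsad2 (chr12:26456453-26456702, minus strand): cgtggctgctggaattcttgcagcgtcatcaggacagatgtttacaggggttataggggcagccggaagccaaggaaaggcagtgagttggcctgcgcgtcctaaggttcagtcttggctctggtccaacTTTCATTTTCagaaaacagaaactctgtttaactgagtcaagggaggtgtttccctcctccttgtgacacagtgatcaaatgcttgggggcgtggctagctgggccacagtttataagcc
Ifit1 (chr19:34640639-34640870, plus strand): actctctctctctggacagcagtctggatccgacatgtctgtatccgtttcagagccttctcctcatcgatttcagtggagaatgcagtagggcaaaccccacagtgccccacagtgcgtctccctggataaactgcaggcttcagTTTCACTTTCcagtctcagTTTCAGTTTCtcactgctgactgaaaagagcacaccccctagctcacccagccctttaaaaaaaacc
Ifi205 (chr1:174031811-174032005, minus strand): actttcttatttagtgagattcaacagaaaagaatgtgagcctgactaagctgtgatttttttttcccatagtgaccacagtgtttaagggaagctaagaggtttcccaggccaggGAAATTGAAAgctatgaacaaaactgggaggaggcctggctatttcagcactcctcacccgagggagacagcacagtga
The match began 213 bases before the start in Cxcl10, 120 in Rsad2, 134 in Ifi205, and 104 and 85 in Ifit1, where it read as the reverse complement, as it did in Rsad2. The window of Slfn4 held none. Of all 32851 windows of the same length, 978 held a match (2.98%). Counted by gene, as for the named genes, 936 of 27025 held a match in any window (3.46%). Among the 25 genes whose level was highest in members over low-Cxcl10 monocytes (below), 21 had a window and 10 of these held a match: Ifit1, Ifit1bl1, Gbp5, Ifit3b, Ifit3, Ifi205, Ifi208, Calhm6, Slfn9 and Socs1. Among the 15 genes at the other end, 10 had a window and 1 held a match, Ldlrad3.

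The 4 libraries held 96751399 to 127449324 UMIs in 8533 to 12318 barcodes, and 8205 to 12092 cells passed the limits of 300 genes and 500 UMIs or more, with mitochondrial UMIs at 15% or less. The median UMIs of a member were 12417, 12711, 15824 and 14536. Barcodes shared between a pair of libraries numbered 42 to 59 over all barcodes and 0 or 1 among members. Levels below are CPM, the UMIs of a gene per 1000000 UMIs of a set of cells in a library. They are compared between sets for the same gene, not between genes. Trim25, the targeted gene, which encodes a ubiquitin ligase that also acts in RNA sensing, was at 72.5 and 68.4 CPM in WT and 54.9 and 56.1 CPM in cKO T cells. In members it was at 317 and 321 CPM in WT and 299 and 313 CPM in cKO (log2 fold change -0.04 ± 0.11). Where the deleted exons lie outside the counted 3' end, counts do not show the deletion, so these values do not test the knockout.

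The label fitted the cells. Monocyte genes that the rule did not use were abundant in members: a UMI of Ccr2, the chemokine receptor that brings monocytes out of the marrow, was found in 88.8 to 92.6% of members thinned to 5000 UMIs per cell, against 38.8 to 40.3% of T cells, and one of Chil3 in 68.0 to 75.8% against 9.12 to 12.3%. In macrophage-like cells with C1q and the same Cxcl10 and Rsad2 limits, Ccr2 was found in 77.0 to 86.6% and Chil3 in 40.1 to 52.5%. Ccr2 thus set members apart from T cells more than from those cells. The 3 label markers outside the rule were higher in members than in low-Cxcl10 monocytes in every library (below). Summed over 8 neutrophil markers, members held 161 to 295 CPM, and Ly6g was found in at most 0.37% of them. The 8 T cell markers summed to 22.1 to 40.2 CPM, 6 B cell markers to 53.0 to 85.0 CPM, and 9 markers of conventional dendritic cells to 22.98 to 42.5 CPM. The 7 markers of plasmacytoid dendritic cells summed to 591 to 688 CPM in members against 345 to 393 CPM in low-Cxcl10 monocytes, led by Tcf4 and with the interferon-induced Bst2 among them. The 8 macrophage markers, with the C1q genes that the rule limits, summed to 763 to 939 CPM, led by Apoe. Of 6 mast cell or basophil markers, Fcer1a was at 0 in members of all 4 libraries. NK cell markers stood apart and are given with the genotype comparison.

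Members made up 11.1% of the kept cells in WT-1 (Wilson 95% interval 10.5 to 11.7), 9.60% in WT-2 (9.09 to 10.1), 6.42% in cKO-1 (5.91 to 6.97) and 10.1% in cKO-2 (9.49 to 10.7). The low share was that of cKO-1, and cKO-2 lay between the WT libraries. The mean was 10.4 ± 1.06% in WT and 8.25 ± 2.58% in cKO (SD, n = 2 each), a difference of -2.102 percentage points (two-sided exact permutation p = 0.667, where 2 against 2 libraries cannot go below 0.333). Without cKO-1 the difference was -0.27 points. A raw UMI limit is passed more easily by a deeper cell, so the whole rule was also applied to cells thinned to 5000 UMIs. Cells under 5000 UMIs were left out, which kept 6450 of 10222, 7647 of 12092, 5076 of 8205 and 6503 of 9387 cells. This setting thus changes the cells counted as well as their depth. Over the cells kept, the difference was -2.89 points (exact permutation p = 0.333). After thinning, shares were 10.4 and 9.01% in WT and 5.44 and 8.21% in cKO, without overlap, and this p is the smallest the design allows. The CD45 sort sets which cells these shares are taken over, and the intervals cover counting error only.

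Among gated monocytes, the 8420 cells that met every limit except those on Cxcl10 and Rsad2, members were 45.9% in WT-1, 44.8% in WT-2, 38.2% in cKO-1 and 47.9% in cKO-2. The cKO libraries lay on either side of both WT libraries. The means were 45.4 ± 0.795% and 43.0 ± 6.85% (difference -2.37 points, exact permutation p = 1), and the difference was 2.48 points without cKO-1. It was -4.40 points after thinning (exact permutation p = 0.667) and -0.63 points with mitochondrial UMIs at 5% or less. With the rule on raw UMIs the genotypes overlapped in both shares, while after thinning they did not overlap in the share of all cells. No permutation p can fall below 0.333 with 2 against 2 libraries, so these tests cannot decide whether the shares differ.

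**Figure D1:**
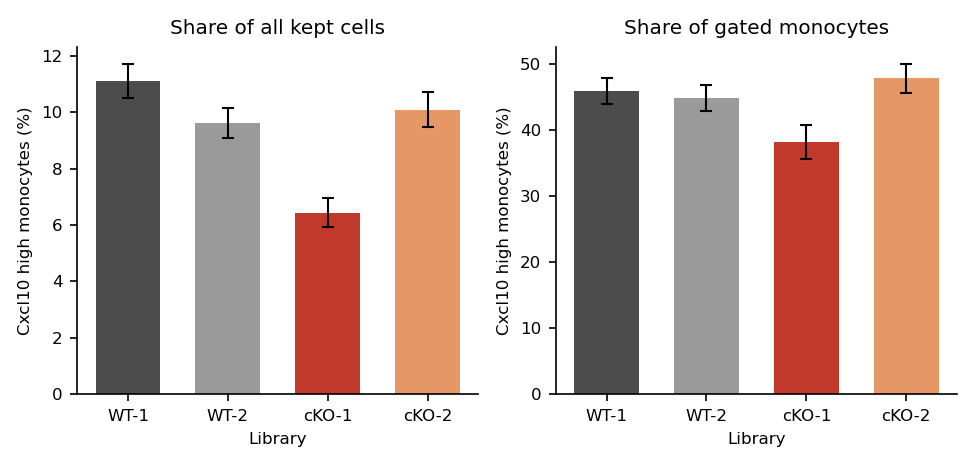
Share of Cxcl10 high monocytes in each library, as a percentage of all kept cells (left) and of gated monocytes (right); bars are libraries and error bars are Wilson 95% intervals. The cKO-1 library is lowest in both panels, at 6.42% and 38.2%, and the other 3 libraries lie between 9.60% and 11.1% and between 44.8% and 47.9%.

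Cxcl10 counts in gated monocytes were spread widely. Members held a median of 62, 60, 63 and 76 Cxcl10 UMIs, with the highest cell between 620 and 759. With each cell thinned to 5000 UMIs, 25.3 to 37.2% of gated monocytes held no Cxcl10 UMI and 13.04 to 20.8% held 40 or more. The bins of 5 to 9 and 10 to 19 UMIs held 6.90 to 8.96% and 8.05 to 9.76% of the cells, below the bins at either end. As the bins differ in width, their shares do not show whether the cells form separate groups. The library with the most cells at 0 and the fewest at 40 or more was cKO-1. The limit of 5 UMIs cut through cells of like levels: cells with 3 or 4 Cxcl10 UMIs and at least 2 of Rsad2, just outside, had 336 to 399 CPM of Ifit1, and cells with 5 or 6, just inside, had 301 to 381 CPM.

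**Figure D2:**
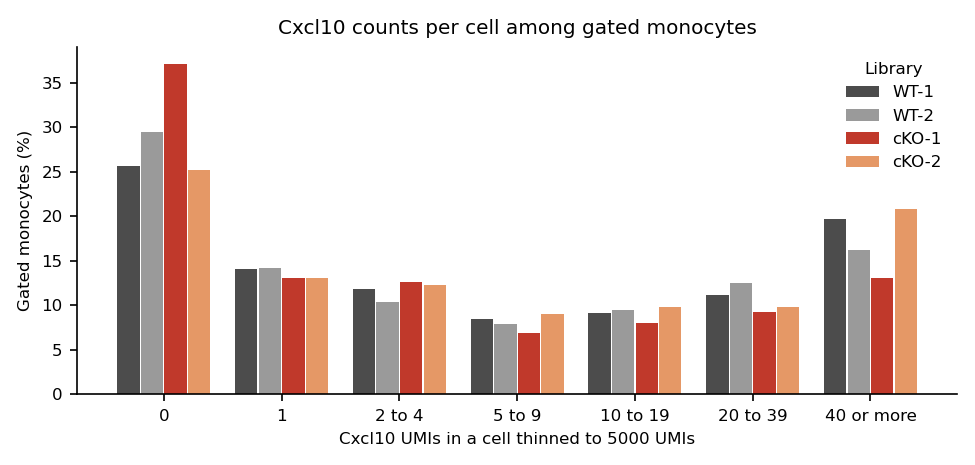
Percentage of gated monocytes (y axis) by the number of Cxcl10 UMIs in a cell thinned to 5000 UMIs (x axis, bins of unequal width), with 1 bar per library. The bins of 0 UMIs (25.3 to 37.2%) and of 40 or more (13.04 to 20.8%) stand above the bins of 5 to 9 (6.90 to 8.96%) and 10 to 19 (8.05 to 9.76%).

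The label markers were compared with those in low-Cxcl10 monocytes, the 2636 gated monocytes with at most 1 Cxcl10 UMI. Because Cxcl10 and Rsad2 counts of these same cells chose both sets, all values of members against low-Cxcl10 monocytes are a description with no test. Cxcl10, selected by the rule, was at 7316, 6319, 6097 and 7405 CPM in members, and at 25.001 to 43.5 CPM in low-Cxcl10 monocytes. Rsad2, also selected, was at 2292, 1838, 1852 and 2282 CPM against 160 to 232 CPM. Ifit1 was at 1119, 1132, 937 and 1057 CPM in members against 153, 143, 118 and 103 CPM, 7.33 to 10.2 times as high within a library. Ifi205 was at 1994, 1722, 1528 and 1969 CPM against 314 to 397 CPM, 4.86 to 5.24 times as high. Slfn4 was at 1496, 1476, 1357 and 1510 CPM against 447 to 495 CPM, 2.74 to 3.30 times as high. Each of the 3 markers outside the rule was at least 2 times as high in all 4 libraries, as were 2.65% of all measured genes outside the rule. RNA of these genes was also found in T cells (at least 3 Cd3 UMIs and at most 2 of Lyz2, median 6322 to 7449 UMIs): at 5000 UMIs per cell, 40.2 to 45.9% of T cells held a Cxcl10 UMI, 34.3 to 38.7% one of Ifit1, 11.7 to 19.6% one of Ifi205 and 9.76 to 13.4% one of Slfn4. The shares in members were 98.4 to 99.3%, 80.3 to 88.4%, 90.6 to 95.9% and 83.0 to 84.1%. Low-Cxcl10 monocytes held an Ifit1 UMI in 25.4 to 33.0% of cells, below the T cell share.

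Antiviral effectors were the genes with the highest ratios of members to low-Cxcl10 monocytes. Over 5860 genes measured in these sets, 2.65% were at least 2 times as high in members in all 4 libraries and 0.683% were at most 0.5 times as high, with a median ratio of 0.858. Of 28 measured antiviral effectors, all were above 1 in all 4 libraries and 16 were at least 2 times as high, with a median ratio of 2.53. Cmpk2, a mitochondrial nucleotide kinase gene on chromosome 12 (26469204 to 26479837, GRCm38, plus strand), led all genes outside the rule. It was at 963, 793, 711 and 943 CPM in members and at 121, 98.1, 72.5 and 85.9 CPM in low-Cxcl10 monocytes, 7.92 to 10.97 times as high. The RNA-binding Ifit genes followed, with Ifit1bl1 7.16 to 9.76, Ifit3b 6.84 to 11.1, Ifit3 5.99 to 7.45 and Ifit2 5.94 to 6.503 times as high. Oasl1, of the oligoadenylate synthetase family, was 4.54 to 5.35 times as high, Usp18, which removes ISG15 from proteins and restrains the interferon receptor, 3.89 to 4.20 times, and Isg15 itself 3.07 to 3.47 times. Ifi27l2a (1.12 to 1.19 times) and Samhd1 (1.43 to 1.49 times) were the effectors with the smallest ratios. Ifit1 and Ifit1bl1, Ifit3 and Ifit3b, and members of the Ifi200, schlafen, Gbp and H2-Q families are near copies of each other, so the split of reads within each family is uncertain.

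Among sensors and signalling genes, fewer reached a ratio of 2. Of 13 measured genes of nucleic acid sensing, 5 were at least 2 times as high in members in all libraries. Ifih1, the gene of the RNA sensor MDA5, was at 1240, 1181, 1140 and 1232 CPM in members and 352, 324, 294 and 342 CPM in low-Cxcl10 monocytes, 3.52 to 3.88 times as high. Ddx58 (RIG-I) was 2.61 to 2.97 times and Tlr3 3.30 to 6.02 times as high, while Trim25 was 1.44 to 1.71 times and the kinase gene Tbk1 1.15 to 1.22 times as high. Among 18 receptor, JAK, STAT and IRF genes, 3 met the same limit: Stat2 (2.23 to 2.51 times), Jak2 (2.02 to 2.13 times) and Socs1, a feedback inhibitor of JAKs (3.43 to 5.14 times). Irf7, a transcription factor that amplifies interferon production, was 1.98 to 2.28 times as high. The receptor genes were not: the type I receptor gene Ifnar1 had ratios of 0.987 to 1.13, and Ifngr1, of the type II receptor, was 0.476 to 0.537 times as high.

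Other interferon-induced families were high as well. Of the 11 genes of the Ifi200 family, DNA-binding proteins encoded in 1 cluster, all were above 1 and 9 were at least 2 times as high in all libraries, from Ifi207 (1.68 to 1.83 times) and Aim2 (1.62 to 1.82 times) to Ifi208 (4.58 to 5.85 times). All 7 schlafen genes were above 1 and 4 were at least 2 times as high, led by Slfn9 (3.63 to 4.28 times). Of 11 measured interferon-induced GTPases, which attack the membranes around intracellular microbes, 9 were at least 2 times as high. Gbp5 was at 207, 185, 146 and 179 CPM in members and 29.6, 24.3, 19.9 and 24.9 CPM in low-Cxcl10 monocytes, 6.99 to 7.62 times as high, and Iigp1 was 4.95 to 8.37 times as high. The 2 sets were apart in every library for Gbp5, with the narrowest span of ratios among the 5 leading genes.

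Secreted factors were high as well. Il15, a cytokine that sustains CD8 T and NK cells, was at 405, 341, 348 and 417 CPM in members against 103, 79.0, 87.2 and 82.7 CPM, 3.92 to 5.04 times as high. Il6 was at 90.2, 77.3, 107 and 159 CPM against 19.7, 9.15, 20.8 and 24.9 CPM, 4.59 to 8.44 times as high, with the highest level in cKO-2. An Il6 UMI was found in 13.1 to 21.5% of thinned members, 2.94 to 5.35% of low-Cxcl10 monocytes and 0.41 to 1.05% of T cells. Tnfsf10, the gene of the death ligand TRAIL, was 5.58 to 8.12 times as high, and Acod1, which makes itaconate, 4.36 to 5.24 times. The early activation marker Cd69 was 4.56 to 5.76 times as high. Among chemokines, Ccl12 (3.61 to 5.71 times), Cxcl9 (2.63 to 3.19 times), Ccl4 (2.36 to 3.61 times), Ccl7 (2.34 to 2.73 times) and Ccl2 (2.27 to 2.64 times) were at least 2 times as high, while Ccl6 was 0.510 to 0.616 times as high. Il1b was 1.06 to 1.504 times as high. Ifnb1, the gene of interferon beta, gave 21, 0, 18 and 22 UMIs over all members of a library, and the 0 of WT-2 allows up to 0.183 CPM (3 UMIs). Arg1 was found in 4.01 to 7.47% of members and Nos2 in 1.19 to 2.31%, close to their shares in low-Cxcl10 monocytes (1.87 to 7.11% and 1.07 to 2.47%).

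A large part of the Cxcl10 RNA of these samples lay in members. They held 9.27 to 15.7% of the UMIs of all kept cells and 43.8 to 54.2% of the Cxcl10 UMIs, a share that the rule itself raises. For genes outside the rule they held 37.5 to 49.0% of the Il15 UMIs, 31.1 to 43.8% of Slfn4, 19.2 to 42.0% of Ccl2, 20.1 to 27.9% of Cd274 (the gene of PD-L1), 18.7 to 28.5% of Cxcl9 and 18.1 to 23.4% of Il1b. For Ccl5, which T and NK cells express, the share was 5.18 to 9.92%, below their share of all UMIs in every library. For Ccl12 it was 12.4 to 17.1%, and cells with C1q held 35.7 to 43.7%. The share was lowest in cKO-1 for each gene named in this paragraph.

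**Figure D3:**
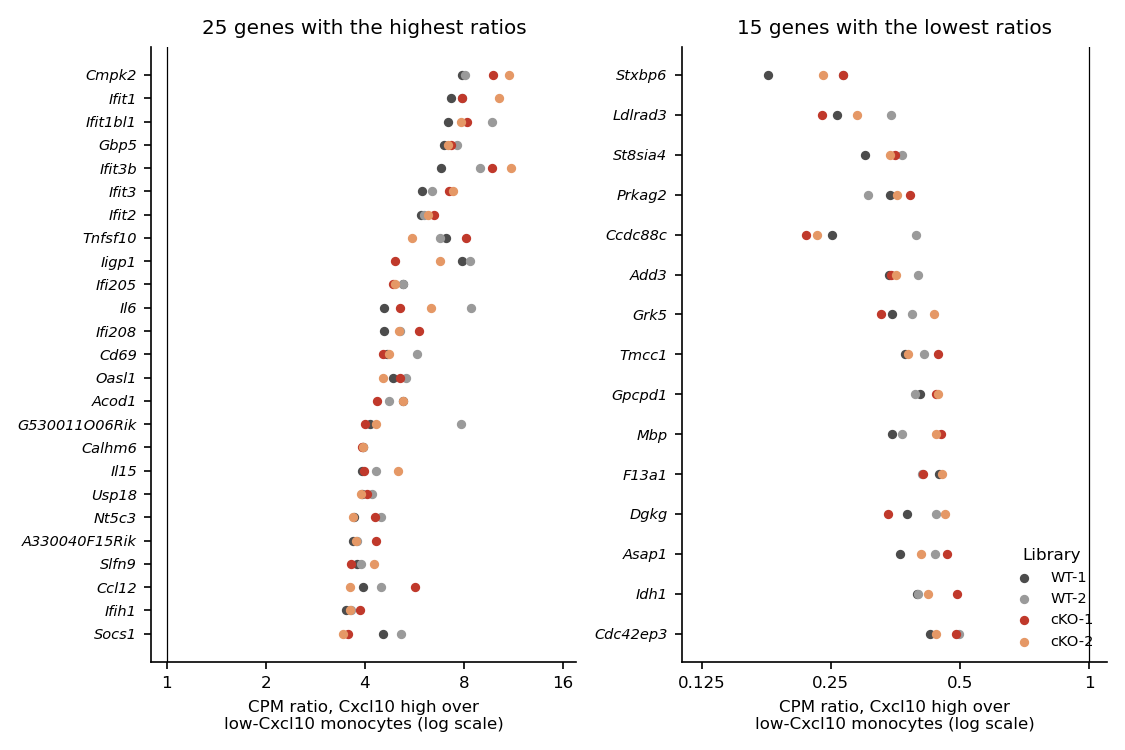
Ratio of CPM in Cxcl10 high monocytes to CPM in low-Cxcl10 monocytes of the same library (x axis, log scale) for the 25 genes with the highest and the 15 with the lowest ratios outside the rule, 1 point per library; a vertical line marks 1. Every point lies on 1 side of the line, from Cmpk2 at 7.92 to 10.97 down to Stxbp6 at 0.178 to 0.267.

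Among antigen presentation genes, most of class I was above 1. Of 18 MHC class I genes, 15 were above 1 in all 4 libraries, with a median ratio of 1.22, where 18.7% of all genes were above 1 and 61.5% below 1 in all libraries. B2m, the light chain of class I, was 1.18 to 1.26 times as high and Nlrc5, the class I transactivator, 2.12 to 2.31 times. Of 8 class II genes 7 were below 1, and their median of 0.846 lay close to the 0.858 of all genes, with Ciita, the class II transactivator, at 0.558 to 0.691 and Cd74, the invariant chain, at 0.755 to 0.940. A Cd74 UMI was found in 56.3 to 67.3% of members and 53.1 to 63.3% of T cells, so its share of cells lay at about the level of cells that should lack it. Cd274 was at 453, 368, 389 and 422 CPM in members and 150, 119, 146 and 128 CPM in low-Cxcl10 monocytes, 2.66 to 3.29 times as high, though T cells also held 120 to 161 CPM. Cd40, a costimulatory receptor, was 3.29 to 3.73 times as high. Vsir, which encodes the checkpoint protein VISTA of the series title, was at 110, 94.4, 111 and 97.2 CPM against 166, 166, 167 and 155 CPM, 0.570 to 0.664 times as high. It was thus among the 61.5% of genes below 1 in all libraries.

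Genes of monocyte identity and of tissue repair had median ratios close to that of all genes. Of 20 genes of monocyte identity and recruitment 11 were below 1 in all libraries and 6 above it (median 0.886). Over all genes, 61.5% were below 1 in all libraries and 18.7% above it. Of 14 measured macrophage and tissue-repair genes 6 were below 1 and 4 above it (median 0.870), with Maf, a transcription factor gene of macrophages, at 1.45 to 1.75. Ccr2 was 0.681 to 0.737 times and Cx3cr1, a receptor of patrolling monocytes, 0.578 to 0.724 times as high, whereas Fcgr1, an Fc receptor gene induced by interferon, was 1.91 to 2.08 times as high. F13a1, the gene of a clotting factor subunit, was at 371, 308, 384 and 355 CPM in members and 833, 757, 935 and 783 CPM in low-Cxcl10 monocytes, 0.407 to 0.453 times as high. The lowest ratios were those of Stxbp6 (0.178 to 0.267), Ldlrad3 (0.238 to 0.345), St8sia4, a polysialyltransferase gene (0.301 to 0.366), and Prkag2, of the AMP-activated kinase (0.304 to 0.382). Add3, F13a1, Idh1 and 8 more genes made up the 15 lowest, each at most 0.5 times as high in all libraries. Of 7 measured proliferation genes 3 were below 1 in all libraries and 0 above it (median 0.847), with H2afz at 0.655 to 0.752. With 61.5% of all genes below 1, this count does not set the list apart as low. None of 16 glycolysis genes reached 2 or fell to 0.5 in all libraries.

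Interferon-induced genes were higher along the whole range of Cxcl10 among gated monocytes, not only at the limit of the rule. From cells with 0 Cxcl10 UMIs to cells with 40 or more per 5000, the summed antiviral effectors, which leave out Cxcl10 and Rsad2, were at 79.0 to 89.8 and 237 to 263 UMIs per 10,000. The Ifi200 family was at 67.6 to 79.3 and 208 to 229, and the GTPases at 6.84 to 9.15 and 29.6 to 36.6. MHC class I genes were at 141 to 157 in cells without Cxcl10, at 170 to 180 at 5 to 9 UMIs and at 167 to 180 at 40 or more, about the same range at the top as in the middle. Class II genes were at 73.7 to 91.5 and 68.2 to 75.4 at the ends, and proliferation genes at 17.2 to 19.3 and 10.3 to 12.5. Lyz2 was at 71.6 to 81.1 and 52.8 to 61.8. For the 3 interferon lists named here, the last bin was above the first in each of the 4 libraries.

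**Figure D4:**
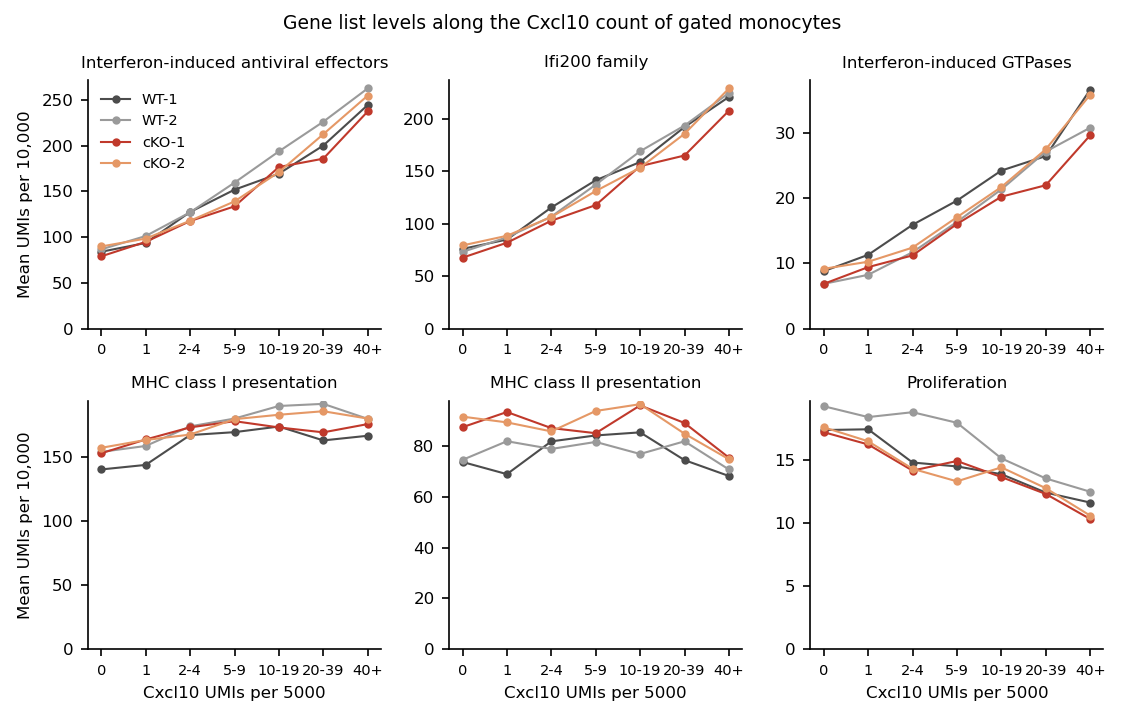
Mean level of 6 gene lists (y axes, UMIs per 10,000, from 0) in gated monocytes grouped by their Cxcl10 UMIs after thinning to 5000 UMIs (x axes), 1 line per library. Antiviral effectors, the Ifi200 family and GTPases are higher in the last bin than in the first (antiviral effectors 79.0 to 89.8 against 237 to 263), MHC class I levels off, MHC class II is at 73.7 to 91.5 and 68.2 to 75.4 at the ends, and proliferation is lower in the last bin (17.2 to 19.3 against 10.3 to 12.5).

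Members also differed among themselves. Across members thinned to 5000 UMIs, the summed antiviral effectors and the Ifi200 family correlated at a Pearson r of 0.739 to 0.825 within a library, over 1087, 1097, 513 and 910 cells, and the effectors and the schlafen genes at 0.638 to 0.673. MHC class I and class II correlated at 0.542 to 0.621, and the Ifi200 family and class II at -0.08 to 0.11. These are descriptions over cells of 1 library, which share its depth and free RNA. Genes outside the rule were ranked by their lowest correlation with Cxcl10 within members in any library. Ifit1 came first (0.428 to 0.470), then Cmpk2 (0.414 to 0.515) and Ifi205 (0.406 to 0.498). Among these genes, Cmpk2 had the highest r in WT-1 (0.481) and cKO-2 (0.515), Ifi205 in WT-2 (0.474) and Ifit1 in cKO-1 (0.461).

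Macrophage-like cells with C1q and the same Cxcl10 and Rsad2 limits as the members, 1122 cells in all, were set beside them. The shared limits did not match the levels. Mean Cxcl10 was 6784 CPM in members and 3942 CPM in the C1q cells, and mean Rsad2 was 2066 and 1155 CPM. The ratios below are not adjusted for this gap. The median UMIs of the C1q cells were 15331, 13653, 19001 and 16529. Ifit2 was 1.19 to 1.37 and Ifit3 1.19 to 1.39 times as high in members as in these cells. Il6 was at 10.8, 17.7, 15.98 and 16.2 CPM in the C1q cells, and members were 4.37 to 9.79 times as high. Gbp5 was 2.11 to 2.39, Il15 1.98 to 2.50 and Cmpk2 1.60 to 2.32 times as high in members. Ccl12, a monocyte chemoattractant, went the other way, at 0.215 to 0.348 times, and so did Iigp1, at 0.464 to 0.691 times. Among the genes low in members against low-Cxcl10 monocytes, F13a1 was 2.31 to 4.04 times and Stxbp6 1.66 to 3.51 times as high in members as in the C1q cells. Since the same genes chose both sets, no test was made.

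The comparison of cKO with WT asks how members differ between mice with and without the Trim25 deletion, on sums of UMIs per library. With edgeR's quasi-likelihood test and Benjamini-Hochberg adjustment, 0 of 12464 genes passed an adjusted p of 0.05 (0% called), with 523 under an unadjusted p of 0.05. DESeq2 on the same sums called 14 genes, 12 higher and 2 lower in cKO. Both cKO libraries were above both WT libraries for 13.1% of genes and below them for 18.1%. The count of calls moved with single libraries, to 187 when WT-1 was left out, 26 for WT-2, 3 for cKO-1 and 5 for cKO-2.

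The 10 genes with the smallest p on the higher side included several inflammatory genes, none of which passed in edgeR. Il1b (chromosome 2, 129364570 to 129371139, GRCm38, minus strand), which encodes interleukin 1 beta, was at 2131 and 1810 CPM in WT members and 3920 and 3104 CPM in cKO members (log2 fold change 0.85 ± 0.16 SE, edgeR adjusted p = 0.755). Ptgs2, the gene of cyclooxygenase 2, was at 329 and 213 CPM in WT and 644 and 499 CPM in cKO (1.09 ± 0.21, adjusted p = 0.755). Cd14, a coreceptor for bacterial lipopolysaccharide, was at 189 and 153 CPM in WT and 346 and 270 CPM in cKO (0.86 ± 0.16, adjusted p = 0.755). The genotypes did not overlap for any of the 3, as for 13.1% of all genes with cKO higher. Since their p in this same comparison chose these genes, the lack of overlap adds no support. Dusp2, a phosphatase of MAP kinases, had 0.73 ± 0.12, Slc7a11, a cystine transporter, 1.08 ± 0.22, Il1r2, the decoy receptor of interleukin 1, 1.05 ± 0.22, Dennd4a 0.70 ± 0.15, Snx20 0.61 ± 0.14 and Dmkn 0.57 ± 0.12. DESeq2 called Il1b, Ptgs2, Cd14, Cd74, Dusp2, Slc7a11, Il1r2, Dennd4a and Snx20 among its 14.

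These genes were also higher in cKO in monocytes outside the set, by values that did not pass either. In low-Cxcl10 monocytes the log2 fold change was 0.90 for Il1b, 1.01 for Ptgs2, 0.58 for Cd14, 0.78 for Dusp2, 0.85 for Slc7a11 and 0.98 for Il1r2, and the test of the difference between the sets, described below, gave edgeR adjusted p-values of 0.988 to 0.991 for them. Il1b was also at 146 and 150 CPM in WT and 264 and 308 CPM in cKO T cells. Among low values in cKO, Hspa1b, a heat shock chaperone gene, was at 270 and 262 CPM in WT and 182 and 180 CPM in cKO (-0.53 ± 0.11, adjusted p = 0.906). St3gal4, a sialyltransferase gene, was at 317 and 468 CPM in WT and 226 and 242 CPM in cKO (-0.72 ± 0.17), and Socs1 at 64.0 and 73.7 CPM in WT and 32.6 and 49.5 CPM in cKO (-0.71 ± 0.19). Kcnq5 (-0.63), Mctp2 (-0.72), Adgre4 (-0.62), Camkmt (-0.50), Ap1s3 (-0.43), Krit1 (-0.38) and Zfp710 (-0.35) completed the named genes on this side. None passed in edgeR, while Hspa1b (adjusted p = 0.0447) and St3gal4 (adjusted p = 0.0178) were the 2 lower calls of DESeq2.

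Interferon-induced genes of members had median folds near 0 between the genotypes. Members of both genotypes had to pass the same Cxcl10 and Rsad2 limits, and Ifit1 correlated with Cxcl10 within members (r 0.428 to 0.470). These folds therefore describe selected cells and do not test whether the interferon response of monocytes at large differed. The median log2 fold change was -0.00 over 31 antiviral effectors, -0.05 over 11 Ifi200 genes, -0.04 over 7 schlafen genes, -0.07 over 12 GTPases and -0.02 over 16 sensing genes, where all genes had a median of -0.00. Both cKO libraries were above both WT libraries for 2 of the 31 effectors and below them for 5, where 13.1% of all genes were above and 18.1% below. Counts above and below were 1 and 4 for the sensing genes and 0 and 3 for the GTPases. They were 0 and 1 for the schlafen genes and 0 and 0 for the Ifi200 genes. Folds were above 0 for 15 of the 31 effectors, 5 of 16 sensing genes, 4 of 12 GTPases, 3 of 11 Ifi200 genes and 0 of 7 schlafen genes, where 49.0% of all genes were above 0. Ifit1 had -0.15 ± 0.13, Ifi205 -0.07 ± 0.16, Slfn4 -0.03 ± 0.13, Isg15 0.06 ± 0.12 and Vsir 0.04 ± 0.13.

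Class II genes and some secreted factors had higher values in cKO, none of which passed in edgeR, while DESeq2 called the class II genes Cd74 (adjusted p = 0.00101) and H2-Ab1 (0.0447). All 8 MHC class II genes had folds above 0 (median 0.59), and both cKO libraries were above both WT libraries for 7 of them, where 13.1% of all genes were above and 18.1% below. Cd74 was at 659 and 833 CPM in WT and 1250 and 1151 CPM in cKO (0.71 ± 0.14, edgeR adjusted p = 0.755). Its log2 fold change was 0.83 in low-Cxcl10 monocytes, so the higher value was not particular to members. The edgeR test of the difference between the sets, described below, gave Cd74 an adjusted p of 0.990. In T cells Cd74 was at 473 and 549 CPM in WT and 652 and 933 CPM in cKO, and the part of free RNA in the fold was not tested. Of 15 chemokine genes 8 did not overlap with cKO higher (median 0.43), among them the neutrophil chemoattractants Cxcl2 (1.27 ± 0.32) and Cxcl3, with 3 and 8 UMIs in WT and 50 and 149 in cKO members (4.51 ± 0.51, adjusted p = 0.195, the smallest of all genes). Of 15 cytokine genes 7 did not overlap with cKO higher (median 0.32), Il6 among them at 0.69 ± 0.19, and 3 did not overlap with cKO lower. For 1 chemokine gene cKO was lower without overlap. Of 16 glycolysis genes 8 did not overlap with cKO higher and 0 with cKO lower (median 0.18). In edgeR the counts of calls were 0 in every list, and DESeq2 called 5 listed genes: Cd74, H2-Ab1, Il1b, the monocyte gene Cd14 and the stress gene Hspa1b.

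**Figure D5:**
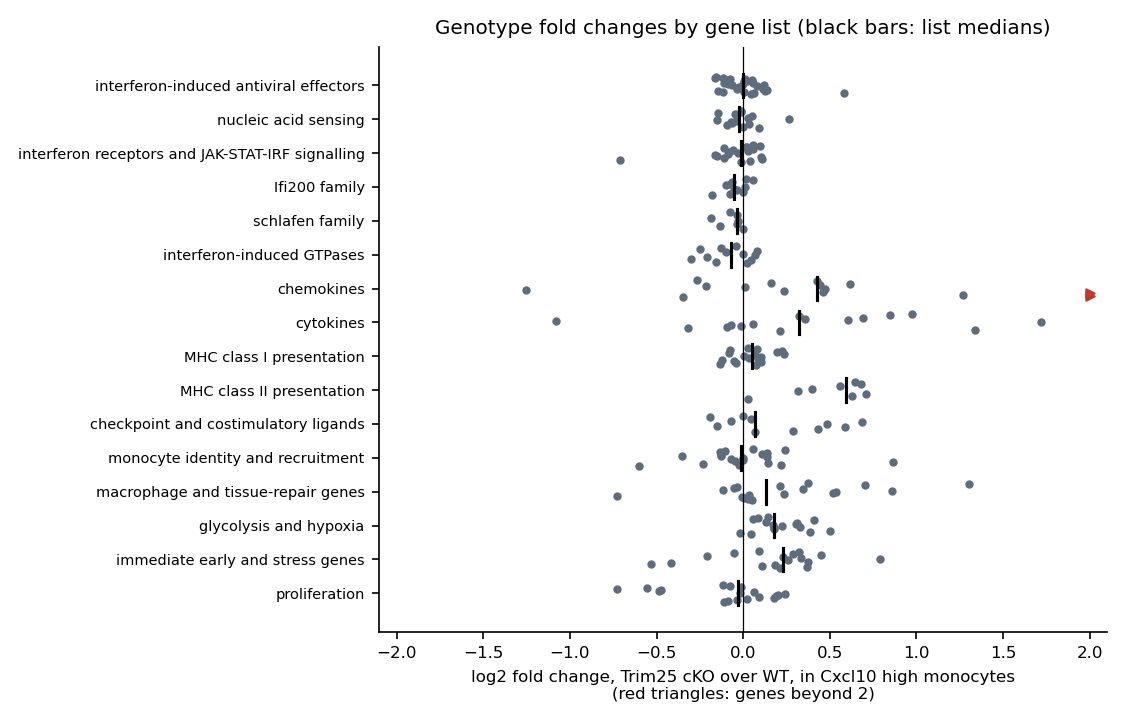
Log2 fold change of cKO over WT in Cxcl10 high monocytes (x axis) for the genes of 16 lists (rows), 1 point per gene, with black bars at the list medians and red triangles for genes beyond 2. Interferon lists centre near 0 (antiviral effectors -0.00, GTPases -0.07), MHC class II at 0.59 and chemokines at 0.43, and no gene passed the edgeR test.

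The genotype effect was also tested for a difference between members and low-Cxcl10 monocytes, with edgeR and a term for each library. Of 12222 genes 5 passed (0.0409%), all with a lower fold in members: Klra9, Gzma, Eomes, Xcl1 and Serpinb6b. Klra9 encodes an NK cell receptor, Gzma granzyme A, Eomes a transcription factor of NK and CD8 T cells and Xcl1 a chemokine of NK cells. Gzma was at 91.5 and 153 CPM in WT and 71.7 and 149 CPM in cKO members, and at 35.1 and 69.1 CPM in WT and 111 and 134 CPM in cKO low-Cxcl10 monocytes (difference -1.44 ± 0.20, adjusted p = 0.0275). NK markers moved with this result: 7 of 7 were present, and they summed to 219, 428, 222 and 282 CPM in members and 105, 175, 228 and 289 CPM in low-Cxcl10 monocytes. Gzma is itself the highest of these markers, so for Gzma neither the sum nor the removal of cells below is independent of its call. Cells with 10 or more NK marker UMIs were 1.69 to 3.19% of members and held 86.6 to 89.4% of those UMIs. Among low-Cxcl10 monocytes such cells were 0.672 and 1.51% in WT and 1.70 and 2.39% in cKO. Without such cells none of the 5 genes passed, and the 2 genes that did, Hba-a1 and Hbb-bs, encode haemoglobin, of which the markers summed to 528 CPM in low-Cxcl10 monocytes of cKO-1 and to at most 5.40 CPM in the other 3 libraries. Leaving out WT-1 gave 30 calls, WT-2 gave 6, cKO-1 gave 99 and cKO-2 gave 60.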

How the data were processed

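Single-cell RNA sequencing was read from 4 matrices of whole-number UMI counts per gene and barcode, as deposited and not normalized; Chromium 3' v3 libraries are named per the labels' protocols, and the sort of CD45-positive cells in the series' design text. Cell Ranger, STAR and mm10 are named per the submitters' processing notes; the sources used here give neither their versions nor the cell calling. Members and lists were chosen with earlier results of these data known. The label limits were applied to raw UMIs, and UMIs were summed per library and cell set with Python 3.11.15, numpy 2.4.6, scipy 1.17.1 and pandas 2.3.3. Sums were tested in R 4.3.3 with edgeR 4.0.16 (TMM, filterByExpr, quasi-likelihood F test, Benjamini-Hochberg threshold 0.05), with DESeq2 1.42.0 as an alternative. The 2 genes Cxcl10 and Rsad2 and the others in the rule were left out of counts of calls. Members against low-Cxcl10 monocytes got no test, since the rule used that contrast.

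Named genes were, for genotype, the 10 smallest p-values on each side at a mean of at least 20 CPM, since fewer than 10 passed. Against low-Cxcl10 monocytes they were the 25 highest and 15 lowest ratios, by the library nearest 1, at a mean of at least 50 CPM in the higher set. Genes of the lists, Trim25, Vsir and the label's markers were named too. To compare shares of cells with a UMI, cells were thinned to 5000 UMIs and shallower cells left out (48 of 1135, 64 of 1161, 14 of 527 and 36 of 946 members). No doublet caller was run; an alternative left out cells with at least 2 UMIs of markers of another type or over 40000 UMIs. Feature IDs were matched to GENCODE vM21 on GRCm38 (32158 of 32285). Member sums of the libraries differed pairwise by a chi-square of 6.70 to 16.7 per degree of freedom, so none was a repeat. Scripts were tested on simulated data. Alternatives were other Cxcl10 limits, thinning, a limit of 5% mitochondrial UMIs, each library left out, other scaling and no low-count filter.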

Additional observations from a re-analysis of the deposited data

Results flagged for a closer look

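For 5 genes the cKO against WT log2 fold change differed between Cxcl10 high and low-Cxcl10 monocytes by an edgeR interaction term, each lower in members. The difference was -3.40 for Klra9 (adjusted p = 0.00125), -1.44 for Gzma (0.0275), -2.41 for Eomes (0.0398), -0.82 for Xcl1 (0.0406) and -1.55 for Serpinb6b (0.0472). Klra9 was at 8.82, 21.0, 7.37 and 10.7 CPM in members (both WT, then both cKO libraries) and at 1.61, 1.99, 9.70 and 14.3 CPM in low-Cxcl10 monocytes. These values entered the test that called Klra9, so their order adds no support. Without cells holding 10 or more NK marker UMIs, a setting chosen after seeing the data, the values were 0.07, 0.16, -0.00, -0.17 and -1.17 in the same order and none passed. Gzma is itself among those markers.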

How the results depend on the processing

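The count of genes that passed between genotypes in members (0 in edgeR) was 14 with DESeq2, 176 without the low-count filter, 3 to 187 with 1 library left out, and 0 with other Cxcl10 limits, thinning, removal of other cell types, a mitochondrial limit or DESeq2 size factors. The libraries share only replicate numbers: with the replicate block 0 genes passed, same-numbered libraries deviated with r = -0.112, and 1 gene passed with the crossed pairing, chosen after seeing the data. The interaction count (5) was 18 and 2 with Cxcl10 limits of 3 and 10 UMIs, 0 with thinning, 0 without cells with markers of other types, 24 at the 5% mitochondrial limit, 2 without cells rich in NK markers, 6 to 99 with 1 library left out, 3 with DESeq2, 16 with DESeq2 size factors, 96 without the filter, 4 with the replicate block, and 0 against monocytes without Rsad2 UMIs. The difference in the share of all cells was -3.93 to -0.27 points with 1 library left out and that of gated monocytes -7.21 to 2.48, the last without cKO-1. Signs reversed for Camkmt with thinning (0.0438) and for Slfn4 with a Cxcl10 limit of 3 (0.0036) and without other cell types (0.0389). With 1 library left out they reversed for Trim25 (-0.0887 to 0.0144), Vsir (-0.0779 to 0.1773), Ifi205 (-0.2809 to 0.1236) and Slfn4 (-0.128 to 0.0636), each without cKO-1, Vsir also without WT-2 and Ifi205 without WT-1. Among interaction values they reversed without NK-rich cells for Klra9 (0.0747) and Gzma (0.16), with thinning for Eomes (0.0519) and Xcl1 (0.11), without other cell types for Xcl1 (0.14) and Serpinb6b (0.88), and without Rsad2 UMIs for Serpinb6b (0.26). The cause was not tested. Of the single values, 320 of the genotype contrast kept direction and side of the threshold, 46 came to pass it and 9 reversed; of the interaction, 44 kept both, 22 no longer passed and 7 reversed.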

Other observations

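The 2015 gated monocytes in neither set, with more than 1 Cxcl10 UMI but short of the Cxcl10 or the Rsad2 limit, lay between members and low-Cxcl10 monocytes for Ifit1, Ifi205 and Slfn4, the label's markers outside the rule. In the order WT-1, WT-2 and then cKO-1, cKO-2, Ifit1 was at 198, 215, 162 and 159 CPM, Ifi205 at 727, 492, 456 and 599.9 CPM, and Slfn4 at 593, 619, 653 and 609 CPM. Il15 was at 108, 99.0, 102 and 108 CPM, below the lowest member library (341 CPM). Cxcl9, a chemokine strongly induced by interferon gamma, was at 383, 212, 192 and 251 CPM in these cells against 402, 233, 198 and 321 CPM in members, a far smaller gap than for Il15. These sets were chosen by the same counts, so the values are a description with no test.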
